A study of Mus musculus with 18 samples.

Results

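Plasminogen activation in the mouse urinary bladder was followed through 5 genes: the 2 activators Plau and Plat, the receptor Plaur, and the inhibitors Serpine2 and Serpinb2. They were picked by name from the 46333 named genes of the deposited count table, and 4 of the 5 were among the 19323 genes with enough counts to be tested. Serpinb2 was not. The genes were picked with results of these libraries in view. One of those results was the level of Plaur 1 day after injury under the 2 diets. For these genes that comparison is described below by values and fitted differences, with intervals that do not allow for the choice. No test of it is used as support, and no other test below is independent evidence for the choice.

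The study injured the bladder with cyclophosphamide (CP), a chemotherapy agent whose metabolites damage the bladder lining as they pass in urine, and asked whether dietary vitamin A alters the response. Whole bladders came from wild-type female BALB/c mice of 8 weeks. Feed was either normal or enriched in vitamin A, from 1 week before a single intraperitoneal injection. Libraries of total RNA were made from bladders taken 1 day after saline, 1 day after CP at 150 mg/kg or 3 days after CP at that dose, each under both diets, which gives 6 groups of 3 biological replicates. For the enriched feed the labels name retinyl acetate, at 566081 UI per kg, whereas the design text names retinyl palmitate. No saline mice were taken at 3 days, so each 3-day comparison with saline also differs in the day of collection. Mice were housed in groups of 3 and the labels do not say which shared a cage, so whether cages and groups coincide is not known.

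Plasminogen is a circulating proenzyme that 2 serine proteases convert to plasmin, which digests fibrin and other matrix proteins and activates other proteases. Urokinase (uPA, encoded by Plau) was first found in urine and acts mainly at cell surfaces, where the receptor uPAR (Plaur), held by a lipid anchor, binds it. Tissue-type activator (tPA, Plat) acts mainly on fibrin. Protease nexin-1 (Serpine2) is a secreted serpin that blocks thrombin, both activators and plasmin. Plasminogen activator inhibitor 2 (Serpinb2) is a largely intracellular serpin known from macrophages and stressed epithelium. These libraries measure transcripts only, not protease activity.

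RefSeq promoter windows were matched for 3 of the 5 genes, Plaur, Serpine2 and Serpinb2, and none was in the table for Plau or Plat. They are shown because Plaur and Serpine2 were raised after CP, with means highest on different days, while Serpinb2 stayed near its counting limit. Each line is the 250 bases before the transcription start, 5′ to 3′ on the gene's strand, with matches of the motifs searched in capitals.
Plaur, chr7:24462233-24462482 (GRCm38.p6, plus strand): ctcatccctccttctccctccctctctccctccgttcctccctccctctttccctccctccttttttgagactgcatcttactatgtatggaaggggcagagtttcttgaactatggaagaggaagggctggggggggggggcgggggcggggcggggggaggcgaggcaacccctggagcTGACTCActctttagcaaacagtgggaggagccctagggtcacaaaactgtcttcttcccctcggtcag
Serpine2, chr1:79858666-79858915 (GRCm38.p6, minus strand): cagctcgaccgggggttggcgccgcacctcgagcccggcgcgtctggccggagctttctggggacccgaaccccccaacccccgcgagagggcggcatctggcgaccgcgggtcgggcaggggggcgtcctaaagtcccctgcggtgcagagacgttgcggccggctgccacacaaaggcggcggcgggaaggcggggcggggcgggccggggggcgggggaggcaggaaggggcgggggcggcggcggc
Serpinb2, chr1:107511173-107511422 (GRCm38.p6, plus strand, the first of 2 annotated starts): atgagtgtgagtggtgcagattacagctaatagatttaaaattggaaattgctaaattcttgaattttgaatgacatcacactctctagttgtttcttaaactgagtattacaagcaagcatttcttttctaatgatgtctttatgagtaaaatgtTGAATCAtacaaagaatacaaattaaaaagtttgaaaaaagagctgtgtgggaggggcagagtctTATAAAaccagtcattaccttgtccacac
The Plaur window holds TGACTCA 69 bases before the start, a match of the AP-1 motif TGANTCA. The Serpinb2 window holds TGAATCA, a match of the same motif, 94 bases before its start and a TATA box, TATAAA, 29 bases before it. The Serpine2 window holds no match of these motifs, of the nuclear receptor half-site AGGTCA or of the NF-kB motif GGANTTTCC, and 78.8% of its bases are G or C, against 59.6% for Plaur and 32.4% for Serpinb2. Both strands were searched, and no 2 matches overlapped. Among 32851 mouse promoter windows of this length, TGANTCA is found in 6.75%, AGGTCA in 14.0%, GGANTTTCC in 1.07% and TATAAA in 12.4%. A match of letters is a description of the window and not a bound site.

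The count table itself is on GRCm39, where Plau (gene 18792) lies on chromosome 14 from 20886730 to 20893456 and Plat (18791) on chromosome 8 from 23247655 to 23272864. Plaur (18793) lies on chromosome 7 from 24161857 to 24175393, Serpine2 (20720) on chromosome 1 from 79772038 to 79836382, and Serpinb2 (18788) on chromosome 1 from 107439153 to 107453330. All lie on the plus strand apart from Serpine2. Levels are given as counts of the gene in each 1000000 counts of named genes in a library (CPM). Changes are log2 ratios from 1 edgeR quasi-likelihood model over all 18 libraries, with a standard error (SE), and p-values were adjusted by Benjamini-Hochberg over all genes tested, with 0.05 as the threshold. Whether the values of 2 groups overlap is given as a description and adds no support to a test. By an exact test, full separation of 3 from 3 has p = 0.1 at best. The share of all genes that separate was not counted. Libraries held 19439887 to 34431039 counts in named genes. No 2 libraries of a group agreed within sampling noise. The 10 urothelial markers listed, uroplakins and keratins among them, were detected in every group, with summed levels of 5482 to 8960 CPM. The second vitamin A replicate 3 days after CP stood apart, with 14.2% of its counts on genes under 1 kb, against 7.13% to 10.8% in the others. Its mean correlation with its own group was the lowest (0.9478), close to that of vitamin A replicate 3 at 1 day (0.9488). The latter had the largest share of mitochondrial counts, 3.82%, and of counts on unnamed rows, 0.8097%.

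The 4 genes tested had different group means over time, which were not tested between genes. Plat and Plaur were raised at 1 day, and on the normal diet did not differ past the threshold from 1 to 3 days. Only on vitamin A, in the group known when the genes were picked, did both stand higher at 1 day than at 3 days past it. Serpine2 was highest at 3 days by mean, a difference from 1 day that passed on the normal diet only. Plau was abundant throughout and moved little. In whole tissue, fewer cells of a type and less RNA per cell cannot be told apart.

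**Figure D1:**
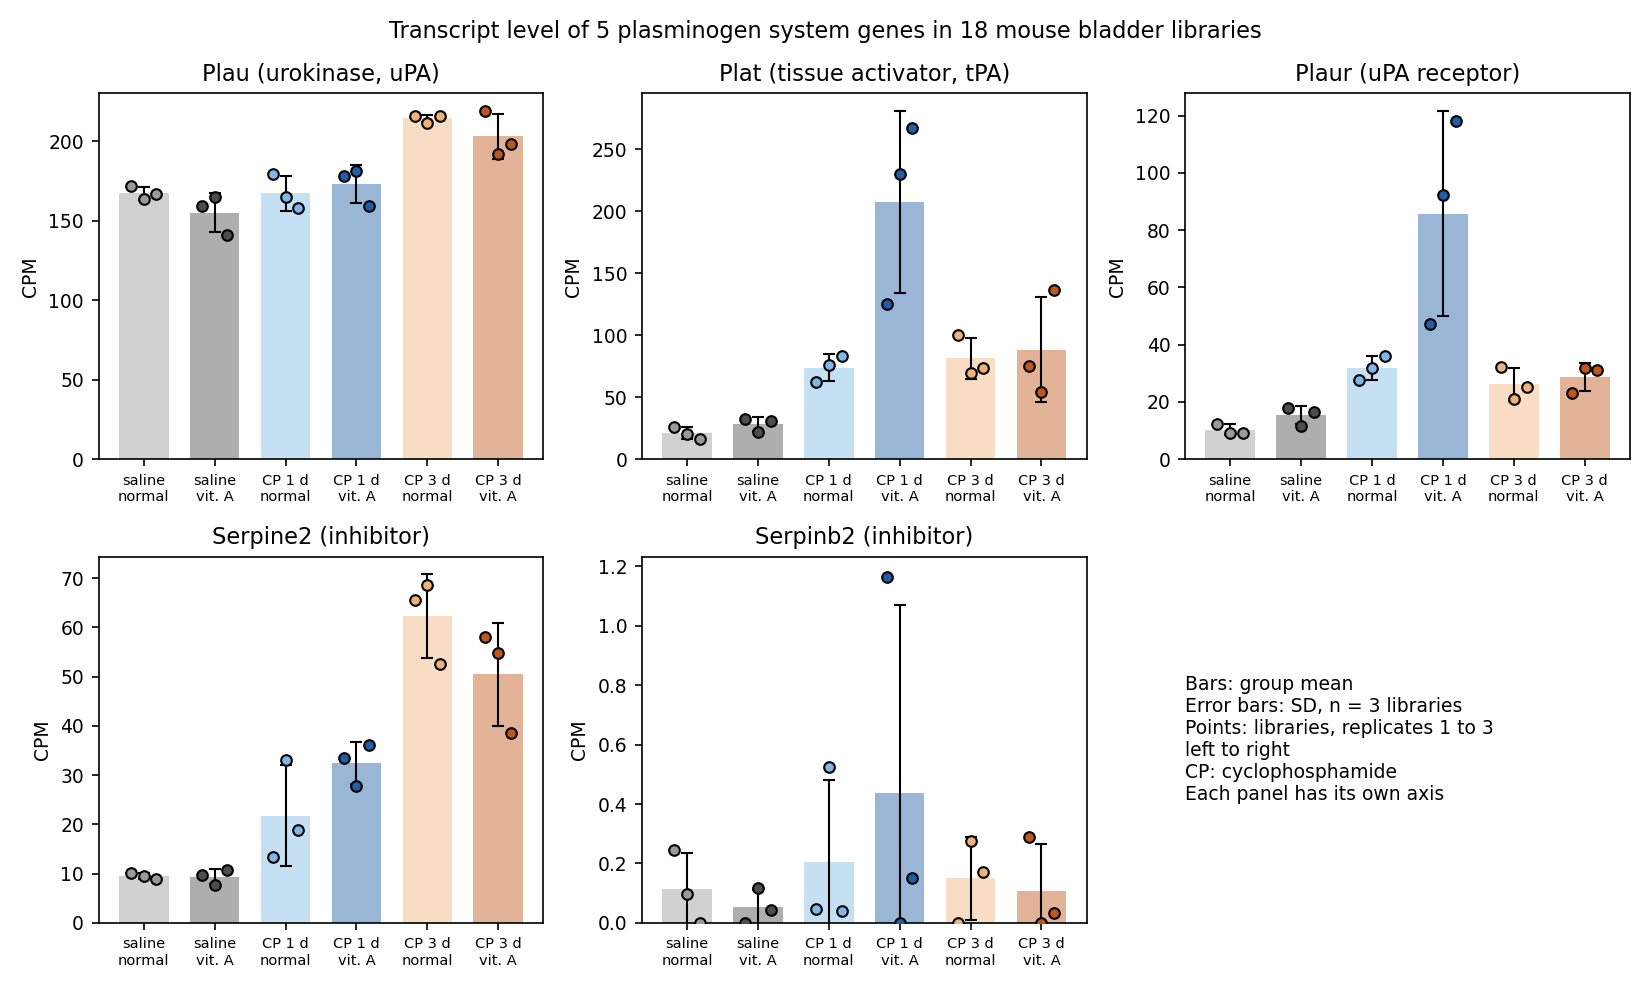
Level of each gene (y axis, CPM, each panel with its own axis) in the 6 groups (x axis); bars are group means, error bars the SD of 3 libraries and points single libraries, with the error bars of Serpinb2 ending at 0. Plau lies between 141.1 and 219.1 CPM everywhere, Plat and Plaur peak 1 day after CP under vitamin A, Serpine2 peaks at 3 days under both diets, and Serpinb2 never passes 1.16 CPM.

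Plat, the gene of tissue-type activator, was at 25.9, 20.7 and 16.5 CPM in the 3 saline bladders on the normal diet. One day after CP on that diet it was at 62.1, 76.4 and 83.2 CPM, and at 3 days at 101, 70.0 and 74.0 CPM. All 6 injured bladders lay above all 3 saline ones, while the 2 days overlapped. The rise was 1.82 at 1 day (log2, SE 0.308; 3.52-fold; edgeR adjusted p = 0.00069) and 1.90 at 3 days (SE 0.308; 3.74-fold; adjusted p = 0.0004745). Between the 2 days the difference was 0.09, with a 95% interval of -0.53 to 0.71 (adjusted p = 0.9594). On the vitamin A diet the saline bladders held 32.1, 22.3 and 31.2 CPM of Plat and the 1-day bladders 125, 230 and 267 CPM. The latter 3 were the highest group of the study by mean, 207 ± 73.5 CPM (SD, n = 3), and replicate 1 was well below the other two. That rise was 2.84 (SE 0.316; 7.15-fold; adjusted p = 6.163e-06). At 3 days the values were 75.3, 54.1 and 136 CPM, again above every saline bladder, with a change from saline of 1.61 (SE 0.304; adjusted p = 0.002452).

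Plaur, the urokinase receptor, had a lower level and a similar course at 1 day. In saline bladders on the normal diet it was at 12.5, 9.23 and 9.21 CPM, and 1 day after CP at 27.6, 31.7 and 36.1 CPM, with no overlap. The rise was 1.63 (SE 0.282; 3.10-fold; edgeR adjusted p = 0.0008518). At 3 days it stood at 32.1, 21.0 and 25.3 CPM, 1.29 above saline (SE 0.28; adjusted p = 0.005747). On vitamin A, saline bladders held 17.98, 11.8 and 16.5 CPM, and the 1-day bladders 47.2, 92.1 and 118 CPM. Each of these 3 exceeded every other library of the study. The rise was 2.45 (SE 0.284; 5.47-fold; adjusted p = 9.134e-06). These 1-day bladders belong to the comparison known when the genes were picked, so this test is not separate from that result. By 3 days the vitamin A group had values of 23.2, 31.9 and 31.2 CPM, a mean of 28.7 ± 4.80 (SD, n = 3). That is 0.90 above saline (SE 0.274), which did not pass the threshold (adjusted p = 0.06288), although the 2 groups did not overlap. It passed with DESeq2 (0.02758) and without vitamin A 3-day replicate 1 (0.03483).

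Plau differed from its partners: its transcript hardly changed at 1 day. Saline bladders held 172, 163 and 167 CPM on the normal diet and 160, 165 and 141 CPM on vitamin A. One day after CP the values were 179, 165 and 158 CPM on the normal diet and 178, 181 and 160 CPM on vitamin A, so that saline and CP ranges overlapped under each diet. The change at 1 day was 0.00 on the normal diet, with a 95% interval of -0.22 to 0.22, and 0.13 on vitamin A, with an interval of -0.09 to 0.35 (edgeR adjusted p = 0.9992 and 0.4387). Changes as large as those of Plat lie outside both intervals. At 3 days all 6 values were above every saline value: 216, 212 and 216 CPM on the normal diet and 219, 192 and 199 CPM on vitamin A. The change from saline was 0.30 (SE 0.105; adjusted p = 0.07921) on the normal diet and 0.38 (SE 0.105; 1.30-fold; adjusted p = 0.03919) on vitamin A. The second of these calls rested on single libraries: it was lost without any 1 of the 3 saline vitamin A bladders and without vitamin A 3-day replicate 1 or 3, with adjusted p up to 0.2869 over all alternatives. The first passed with DESeq2 (0.02012) and in a fit of its 2 groups alone (0.02196). From 1 to 3 days Plau differed by 0.30 on the normal diet (adjusted p = 0.211, with DESeq2 0.03514) and by 0.25 on vitamin A (adjusted p = 0.1939).

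Since Plau stayed level and Plat did not, the makeup of activator transcript shifted. Compared per transcript length, as the deposited FPKM (fragments scaled for transcript length and library size), saline bladders on the normal diet held 66.4 FPKM of Plau and 7.88 of Plat. Plat was then 10.6% ± 1.97 (SD, n = 3) of the sum of both. One day after CP it was 29.4% ± 4.38 on the normal diet, and on vitamin A 39.9%, 54.5% and 61.2% in the 3 bladders. So in 2 bladders of that group Plat transcript exceeded that of Plau. At 3 days the share was 26.3% ± 3.74 on the normal diet and 28.3% ± 9.70 on vitamin A. Saline bladders on vitamin A had a share of 14.8% ± 3.14, a range of 11.3% to 17.3% that overlaps the 8.53% to 12.5% of the normal diet.

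Serpine2, encoding protease nexin-1, followed a later course. It was at 10.1, 9.56 and 8.87 CPM in saline bladders on the normal diet. One day after CP it was at 13.3, 33.1 and 18.9 CPM, above saline in all 3 but uneven, and at 3 days at 65.6, 68.6 and 52.6 CPM. The rise over saline was 1.196 at 1 day (SE 0.249; 2.29-fold; edgeR adjusted p = 0.003924) and 2.66 at 3 days (SE 0.256; 6.30-fold; adjusted p = 2.412e-06). The difference between the days was 1.46 (SE 0.243; 2.75-fold; adjusted p = 0.003808), and the 2 groups did not overlap. On vitamin A the saline values were 9.61, 7.66 and 10.7 CPM, the 1-day values 33.4, 27.8 and 36.2 CPM, and the 3-day values 58.1, 54.9 and 38.5 CPM. The rises over saline were 1.77 (SE 0.25; adjusted p = 6.382e-05) and 2.43 (SE 0.254; 5.38-fold; adjusted p = 9.265e-06). From 1 to 3 days the difference was 0.66 (SE 0.24), which did not pass (adjusted p = 0.1285), although every 3-day value exceeded every 1-day value.

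Serpinb2 was barely detected. Its counts in replicates 1, 2 and 3 were 5, 2 and 0 in saline bladders on the normal diet and 0, 3 and 1 on vitamin A. One day after CP they were 1, 13 and 1 on the normal diet and 24, 0 and 3 on vitamin A, and at 3 days 0, 9 and 5, and 7, 0 and 1. That is 75 counts in all, with 5 of 18 libraries at 0, where 3 counts, the limit a count of 0 allows, correspond to 0.0871 to 0.154 CPM. Limits of this kind cover counting error only. Single bladders set the group sums, since 24 of the 27 counts 1 day after CP on vitamin A came from replicate 1, and no difference between groups can be read at this depth. Serpinb2 sits in a cluster of serpin genes on chromosome 1. Of the 11 other cluster genes listed, only Serpinb5 and Serpinb8 had enough counts to be tested; the other 9 had at most 17 counts in any library, and Serpinb13, Serpinb3a, Serpinb3b, Serpinb3c and Serpinb3d had none in any. Serpinb5 (maspin, an epithelial serpin without known protease inhibition) lies from 106788905 to 106811078. It rose 1 day after CP by 1.42 on the normal diet and by 1.71 on vitamin A (edgeR adjusted p = 0.0001076 and 8.315e-06), and its rises at 3 days were 1.21 and 1.29 (0.0003944 and 0.0002765).

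**Figure D2:**
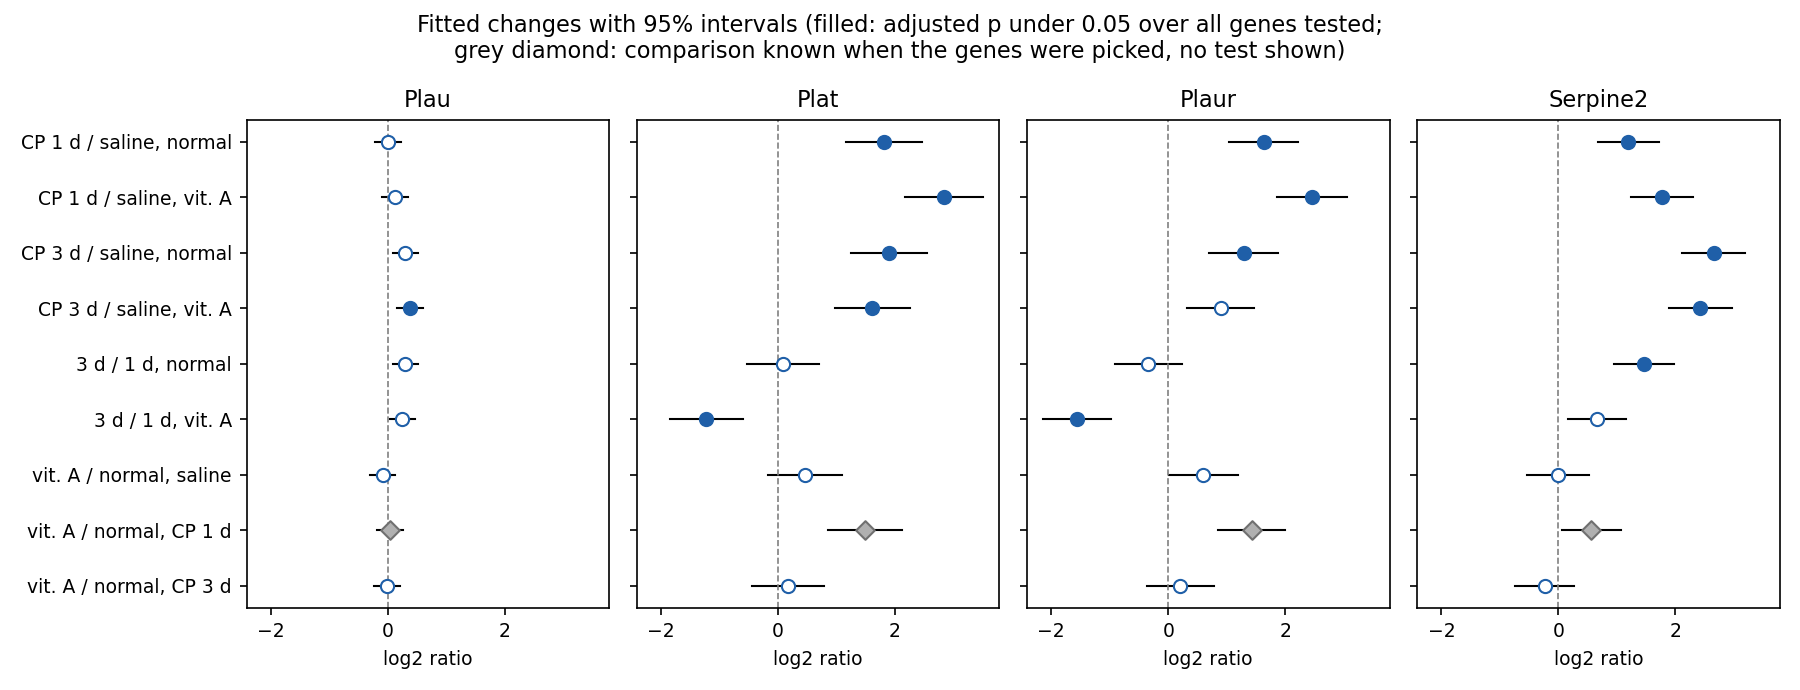
Fitted log2 ratio (x axis) with its 95% interval for 9 comparisons (y axis) of Plau, Plat, Plaur and Serpine2; filled circles have an adjusted p under 0.05 over all genes tested, open circles do not, and grey diamonds mark the diet comparison at 1 day after CP, known when the genes were picked and shown without a test. Plat, Plaur and Serpine2 lie to the right of 0 in all 4 comparisons with saline, and intervals of Plau stay between -0.31 and 0.60.

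Of the 4 genes tested, 3 rose 1 day after CP on the normal diet, where 7.26% of all genes tested rose, and 3 on vitamin A, where 10.2% of all did. The 1-day bladders of both diets belong to the comparison known when the genes were picked. These 1-day counts are therefore not separate from that result. At 3 days 3 rose on the normal diet, against 6.74% of all genes, and 3 on vitamin A, against 4.32%. From 1 to 3 days 1 of the 4, Serpine2, rose on the normal diet, against 1.22% of all genes. On vitamin A, Plaur fell by 1.56 (SE 0.275; edgeR adjusted p = 0.003616) and Plat fell by 1.23 (SE 0.298; adjusted p = 0.02578) between those days, against 1.69% of all genes that fell. The 1-day vitamin A bladders of this comparison are those in which Plaur was first seen to be high, so the falls are not separate from that result. Plaur lost its call when only these 2 groups were fitted (adjusted p = 0.118). The call of Plat was lost without vitamin A 1-day replicate 2 or 3 or 3-day replicate 1 or 2, and its adjusted p over all alternatives ran from 0.001625 to 0.2652. On the normal diet the 2 days did not differ past the threshold for Plaur (-0.34, 95% interval -0.91 to 0.23, adjusted p = 0.7274). Comparisons at 1 and 3 days share their saline bladders, so they are not independent of each other.

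One day after CP, vitamin A bladders held more Plat and Plaur than normal diet bladders, without overlap in either gene. The difference was 1.48 for Plat (SE 0.3; 2.80-fold; 95% interval 0.85 to 2.12) and 1.43 for Plaur (SE 0.274; 2.69-fold; interval 0.85 to 2.00). For Serpine2 it was 0.57 (interval 0.06 to 1.07) with overlapping groups, and for Plau 0.04 (interval -0.18 to 0.26). In this comparison 0.238% of all genes tested were higher past the threshold and 0.228% lower, from which nothing is read for these 4. In the authors' deposited table for the same diets and day the log2 difference, turned to vitamin A over normal, is 1.49 for Plat, 1.43 for Plaur and 0.57 for Serpine2. The size of both differences depended on single bladders and settings, and over all alternatives Plat ran from 1.26 to 1.75 and Plaur from 1.13 to 1.73.

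Diet alone gave smaller differences. In saline bladders vitamin A minus normal was 0.46 for Plat (95% interval -0.17 to 1.10), 0.60 for Plaur (0.02 to 1.19), -0.09 for Plau (-0.31 to 0.13) and -0.01 for Serpine2 (-0.53 to 0.52). None of the 4 passed by edgeR (adjusted p = 1 for each) or by DESeq2, and 1 of them, Plaur, had an unadjusted p under 0.05. In all, 0.0104% of genes passed there in either direction. In the authors' deposited table Plaur is 0.60 higher with vitamin A in saline bladders, with an adjusted p of 0.1884. At 3 days after CP the differences were 0.17 for Plat (-0.45 to 0.79), 0.21 for Plaur (-0.36 to 0.78), -0.02 for Plau (-0.24 to 0.20) and -0.24 for Serpine2 (-0.73 to 0.26). Again none of the 4 passed by edgeR or DESeq2, none had an unadjusted p under 0.05, and 0.00518% of all genes passed. The ranges of both diets overlapped for every gene on both of these occasions.

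Whether CP acted differently under the 2 diets was tested by the interaction. At 1 day the rise was larger on vitamin A by 1.02 for Plat (SE 0.423; 95% interval 0.14 to 1.91; edgeR adjusted p = 0.5591) and by 0.82 for Plaur (SE 0.388; 0.01 to 1.64; adjusted p = 0.636), and neither passed. For Serpine2 it was 0.57 (-0.16 to 1.30; adjusted p = 0.7472) and for Plau 0.13 (-0.18 to 0.44; adjusted p = 0.9191). The change from 1 to 3 days differed between diets by -1.31 for Plat (SE 0.418; -2.19 to -0.44; adjusted p = 0.3466) and by -1.22 for Plaur (SE 0.383; -2.02 to -0.42; adjusted p = 0.3428). Across all genes 0% passed in either interaction by edgeR, although 1505 and 1732 genes had an unadjusted p under 0.05 and DESeq2 called 120 and 88. Plat and Plaur were among those under 0.05 in both, Serpine2 in the second, and DESeq2 called none of the 4 in either. A different response under vitamin A was therefore not shown for these genes, nor was its absence. Both interactions contain the diet difference at 1 day, known when the genes were picked. Their estimates, intervals and unadjusted p-values are thus not separate from that result.

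**Figure D3:**
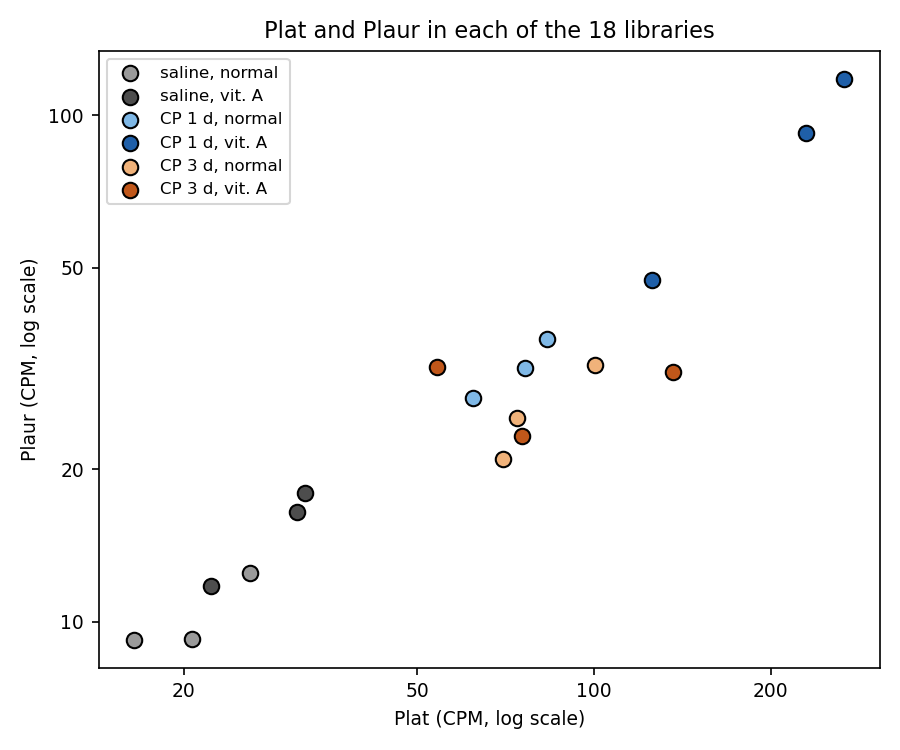
Level of Plat (x axis) and Plaur (y axis), both in CPM on log scales, in each of the 18 libraries, coloured by group. The 6 saline bladders lie at the lower left, at most 32.1 CPM of Plat and 17.98 of Plaur, and the 3 vitamin A bladders 1 day after CP at the upper right.

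Plat and Plaur varied together from bladder to bladder. Across the 18 libraries their log2 levels had a Pearson r of 0.951 and a Spearman rho of 0.895, and r was 0.739 after each group's mean was removed. These points share their library, its depth and the group differences, so the correlation is a description. Plat and Serpine2 had r = 0.695 across libraries and -0.01 within groups. Plau and Plaur, enzyme and receptor, had r = 0.133 across libraries and -0.20 within groups. Among 13805 genes, those most like Plat over the 18 libraries were the alarmin cytokine Il33 (r = 0.966), the hypoxia-response subunit Hif1a (0.963) and the immune checkpoint ligand Vtcn1 (0.957). Those most like Plaur were the actin-binding Cotl1 (0.963), the serine protease Prss22 (0.961) and lactate dehydrogenase Ldha (0.959). Serpine2 ran closest to the cell-cycle inhibitor Cdkn2c (0.967), the anticoagulant protein S gene Pros1 (0.966) and the mitotic gene Pimreg (0.966). Plau had looser matches, led by Syt13 (0.894), the hyaluronan synthase Has2 (0.871) and C1qtnf6 (0.846). With group means removed, r fell to between 0.726 and 0.846 for the genes like Plat and Plaur, to between 0.530 and 0.703 for those like Serpine2, and to between 0.071 and 0.482 for those like Plau.

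Markers of other cell types moved with some of these changes. The summed level of 7 neutrophil markers was 7.23, 18.1 and 32.3 CPM in vitamin A replicates 1, 2 and 3 at 1 day, the replicates in which Plat was 125, 230 and 267 CPM and Plaur 47.2, 92.1 and 118 CPM. In replicates 1, 2 and 3 on the normal diet that day it was 4.59, 5.49 and 13.1 CPM, an order that Plat and Plaur shared. It was 1.48 to 4.25 CPM in saline bladders. At 3 days on the normal diet it was 9.23, 4.76 and 4.415 CPM. Plat was then 100.5, 69.95 and 73.98 CPM and Plaur 32.13, 20.96 and 25.25 CPM. On vitamin A at 3 days the sum was 7.52, 2.55 and 3.92 CPM. Plat was 75.29, 54.11 and 136.1 CPM and Plaur 23.21, 31.86 and 31.15 CPM there, so the order was not shared at 3 days. Ly6g was at 0 in all groups but the vitamin A bladders at 1 day, where it had 3 counts, Mmp8 was at 0 in saline bladders and Retnlg at 0 in 3 of the 4 CP groups. Of the 4 neutrophil markers tested, 1 rose at 1 day on the normal diet (2 without replicate 1) and 3 on vitamin A (2 to 4 with 1 library left out), and none differed between diets that day. Of all genes 7.26% rose at 1 day on the normal diet and 10.2% on vitamin A, and 0.466% differed between diets. Vitamin A replicate 3 also had the largest share of mitochondrial counts of all libraries, 3.82%. For Serpine2, 7 fibroblast markers summed to 4861 to 5682 CPM in saline bladders, 1048 to 2285 CPM at 1 day and 3892 to 8565 CPM at 3 days. At 1 day 6 of the 7 fell on the normal diet and all 7 on vitamin A while Serpine2 rose. Of all genes 4.49% and 9.05% fell, and with 1 library left out 5 to 6 and 6 to 7 of the markers did. From 1 to 3 days 3 of the 7 rose on the normal diet and 6 on vitamin A, against 1.22% and 2.55% of all genes. With 1 library left out 3 and 5 to 7 rose. Of 8 monocyte and macrophage markers, 5 rose over saline at 3 days on the normal diet and 3 on vitamin A, with sums of 563 to 1018 CPM against 378 to 678 CPM in saline. With 1 library left out these counts were 3 to 4 and 1 to 3, the lowest being without 3-day replicate 1 on the normal diet and without saline replicate 1 or 2 on vitamin A. Of all genes 6.74% and 4.32% rose at 3 days. At 1 day 2 of the 8 rose on the normal diet, and 1 rose and 2 fell on vitamin A. Their sums were then 426.5 to 479.8 CPM and 261.6 to 397.7 CPM. With 1 library left out 1 to 2 rose on each diet and 2 to 3 fell on vitamin A. Of 6 endothelial markers, 4 rose at 3 days on the normal diet, with sums of 353 to 417 CPM against 208 to 232 CPM in saline, and 1 to 4 rose with 1 library left out, the lowest without saline replicate 1. On vitamin A 1 of the 6 rose, and 0 to 1 with 1 library left out. On the normal diet 6 smooth muscle markers summed to 23880 to 30590 CPM in saline bladders, 11550 to 19760 CPM at 1 day and 9734 to 18270 CPM at 3 days. On vitamin A the sums were 20790 to 30750, 11910 to 22460 and 13230 to 26410 CPM, with overlap. At 1 day 1 of the 6 fell on each diet, against 4.49% and 9.05% of all genes. With 1 library left out 0 fell on the normal diet and 0 to 1 on vitamin A.

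Markers of the bladder lining also moved at 1 day, when Plat and Plaur were high. Of the 10 urothelial markers, 2 rose and 2 fell on the normal diet, and 4 rose and 5 fell on vitamin A. Of all genes 7.26% rose and 4.49% fell on the normal diet, and 10.2% rose and 9.05% fell on vitamin A. Krt14, a basal keratin, went from 1.86 ± 0.938 to 37.5 ± 12.99 CPM on the normal diet and from 3.12 ± 1.47 to 109 ± 29.3 CPM on vitamin A (SD, n = 3; edgeR adjusted p = 0.001647 and 0.000186). Upk3a, a uroplakin of the surface cells, went from 1608 ± 40.2 to 1109 ± 282 CPM on the normal diet (adjusted p = 0.1911) and from 1605 ± 18.2 to 587 ± 241 CPM on vitamin A (adjusted p = 0.0004908). With 1 library left out, 2 to 4 urothelial markers rose and 4 to 5 fell on vitamin A, and 2 rose without 1-day replicate 2 or saline replicate 1. On the normal diet 1 fell without 1-day replicate 3. None of the 10 differed between diets at 1 day past the threshold, where 0.466% of all genes did. With 1 library left out, 0 to 2 of the 10 were lower on vitamin A. Adipocyte markers, 4 in number, varied between bladders. By mean they were higher on vitamin A in saline bladders and at 1 day, but not at 3 days. Their sums were 78.7, 15.5 and 39.7 CPM in the saline vitamin A replicates 1, 2 and 3, in which Plat was 32.1, 22.3 and 31.2 CPM and Plaur 17.98, 11.8 and 16.5 CPM. On the normal diet the saline sums were 1.07, 18.1 and 0.549 CPM, with Plat at 25.88, 20.65 and 16.46 CPM. At 1 day on vitamin A the sums were 85.0, 8.39 and 207 CPM, with Plat at 125.3, 230.1 and 266.9 CPM. On the normal diet they were 16.0, 9.89 and 35.8 CPM that day. At 3 days the sums were 47.5, 30.07 and 5.422 CPM on vitamin A and 59.68, 26.48 and 1.242 CPM on the normal diet. The sums had the replicate order of Plat and Plaur only in the saline vitamin A bladders. The median log2 difference of the 4 adipocyte markers between diets was 2.86 in saline bladders, 2.35 at 1 day and 0.131 at 3 days. None of the 4 passed in any of these, where 0.0104%, 0.466% and 0.00518% of all genes did. The part of all these cells in the results was not tested.

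The rest of the plasminogen system was followed through a list of 36 genes, 26 of which had enough counts. Plasminogen itself (Plg, at most 5 counts in a library) and the plasmin inhibitor Serpinf2 (at most 14), both made mainly in liver, were not among them. One day after CP, 6 of the 26 rose and 4 fell on the normal diet, with a median log2 change of 0.17 (-0.00 over all genes tested), where 7.26% of all genes rose and 4.49% fell. On vitamin A 9 rose and 6 fell, with a median of 0.46 (-0.01 over all), where 10.2% of all genes rose and 9.05% fell. With 1 library left out, 1 to 4 rose on the normal diet in every fit, and the number that fell was 1 without 1-day replicate 1 and 3 otherwise. On vitamin A 6 to 11 rose and 4 to 5 fell. At 3 days 3 rose and 1 fell on the normal diet (median 0.29, 0.00 over all), against 6.74% and 3.3% of all genes. With 1 library left out 2 to 3 rose, and the fall remained only without 3-day replicate 2. On vitamin A 4 rose and 0 fell (median 0.23, 0.01 over all), against 4.32% and 1.67% of all genes, and 2 rose without saline replicate 1, 1 without saline replicate 2 and 3 to 5 in the other fits.

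**Figure D4:**
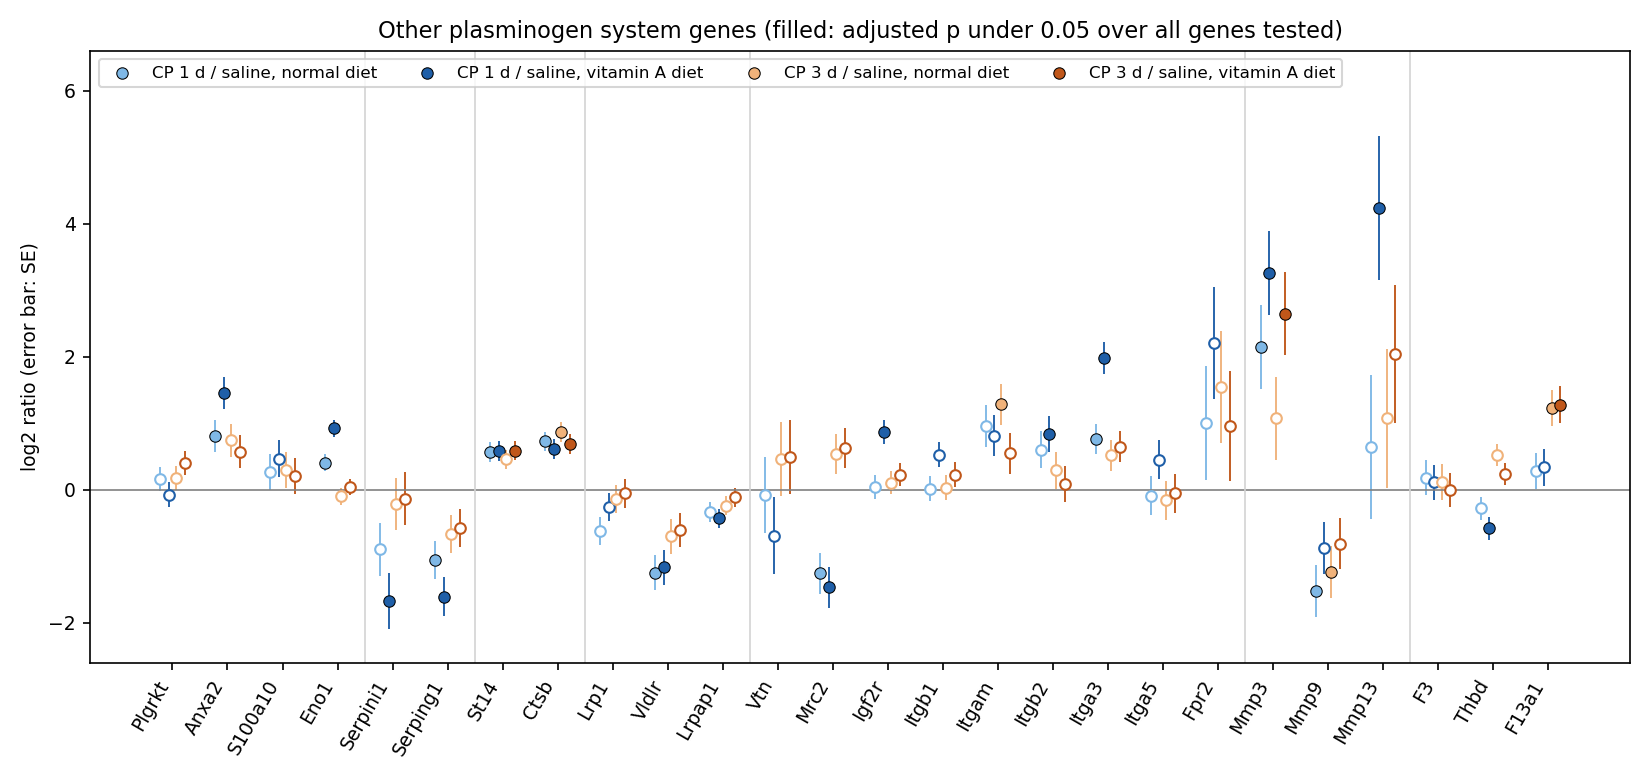
Log2 ratio (y axis, error bar the SE) of CP over saline for the 26 other plasminogen system genes tested (x axis, ordered by role with grey lines between roles), at 1 and 3 days under each diet; filled points have an adjusted p under 0.05 over all genes tested. Ctsb is filled above 0 in all 4 comparisons, whereas Mrc2, Vldlr and Serping1 are filled below 0 at 1 day only.

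Among inhibitors, Serping1, the C1 inhibitor, fell by 1.06 and by 1.61 at 1 day (adjusted p = 0.02235 and 0.0007088), and the neural serpin gene Serpini1 fell by 1.67 on vitamin A (0.008646). Of these, the fall of Serping1 on the normal diet was lost in 4 of 6 fits without 1 library.

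Anxa2, the annexin that binds plasminogen and tPA, rose by 0.81 on the normal diet and 1.45 on vitamin A at 1 day (edgeR adjusted p = 0.0382 and 0.0003828). The integrin subunit Itga3, a partner of uPAR, rose by 0.76 and 1.98 (0.03975 and 1.402e-05). Both normal diet calls were weak, lost in 5 and in 6 of the 6 fits without 1 library. Between the diets at 1 day 1 of the 26 was higher on vitamin A, Itga3 by 1.44, and none lower, against 0.238% and 0.228% of all genes. This comparison was known when the genes were picked, so the call is not separate from that result. The call of Itga3 was lost without vitamin A replicate 3 or normal diet replicate 1, and 4 of the 26 were higher without vitamin A replicate 1. None of the 26 passed between diets in saline bladders or at 3 days, or in either interaction. Of all genes 0.0104%, 0.00518% and, in each interaction, 0% passed.

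Vldlr and Mrc2, 2 uptake receptors, fell at 1 day on both diets. Vldlr, a clearance receptor of serpin complexes, fell by 1.25 on the normal diet and 1.17 on vitamin A (edgeR adjusted p = 0.004496 and 0.003991). Mrc2, a collagen receptor that associates with uPAR, fell by 1.26 and 1.47 (0.0122 and 0.002478) and rose again from 1 to 3 days by 1.79 and 2.09. On the normal diet both calls of Mrc2 were lost without 1-day replicate 1. The fibroblast markers given above moved the same way as Mrc2, and their part was not tested. Metalloproteases, some of which plasmin can activate, differed among themselves. Mmp3 (stromelysin 1) rose by 2.14 on the normal diet and 3.26 on vitamin A at 1 day (0.03377 and 0.001315), from means of 0.649 and 0.680 CPM. Mmp13 (collagenase 3) rose by 4.24 on vitamin A (0.009606), but its counts there ran from 4 to 237 and the call was lost without replicate 3. Mmp9 (gelatinase B) fell by 1.53 at 1 day and by 1.24 at 3 days on the normal diet (0.01622 and 0.04841), the first lost in 3 and the second in 5 of 6 fits without 1 library. The 1-day call of Mmp3 on the normal diet was lost in 4 of 6.

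At 3 days the genes of the list that rose on both diets were F13a1 and Ctsb. F13a1, the fibrin-crosslinking factor XIII subunit, rose by 1.23 and 1.28 (edgeR adjusted p = 0.006915 and 0.006878), and Ctsb, cathepsin B, which can activate pro-urokinase, by 0.86 and 0.69 (0.0008172 and 0.00686). Itgam, the macrophage and neutrophil integrin subunit that binds uPAR, rose by 1.28 on the normal diet (0.01298), and Mmp3 by 2.65 and St14 (matriptase, an activator of pro-urokinase) by 0.59 on vitamin A (0.01432 and 0.02291). The rise of Itgam was lost without normal diet saline replicate 2 or 3, and on vitamin A that of Mmp3 without saline replicate 1 or 2, that of St14 without saline replicate 1 or 2 or 3-day replicate 3, and that of Ctsb without saline replicate 2. From 1 to 3 days 4 of the 26 rose and 4 fell on vitamin A (median -0.05, 0.01 over all genes), among them Itga3, which fell by 1.33, against 2.55% and 1.69% of all genes. Without 1-day replicate 2, 1 rose; without 1-day replicate 3 or 3-day replicate 2, 2 rose, and without 1-day replicate 3 the number that fell was 2. On the normal diet 2 rose and 1 fell (median 0.12, -0.01 over all), against 1.22% and 0.217% of all genes. No fit without 1 library kept the fall, that of Eno1, and the number that rose was 0 without 1-day replicate 1 and 1 without 1-day replicate 3 or 3-day replicate 2 or 3.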

How the data were processed

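Whole-bladder total RNA of 18 libraries in 6 groups of 3 was measured. The authors deposited gene counts and FPKM for each library, per the file headers, and, for the diet comparisons, log2 fold changes and p-values of features with an unadjusted p under 0.05. The submitters' processing notes name DESeq2 1.20.0, featureCounts 1.5.0-p3, HISAT2 2.0.5 and the build GRCm39, without roles; strandedness is not given in the sources used here. Deposited FPKM equalled count over length, scaled per library, to 5.22e-15. Unnamed rows (14417 of 60750, 0.474% to 0.810% of counts) were left out.

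Counts were fitted in R 4.3.3 with edgeR 4.0.16 (TMM, filterByExpr, robust quasi-likelihood, 1 mean per group, 12 residual degrees of freedom, 11 contrasts, two-sided). The model was tested on simulated data. DESeq2 1.42.0, other size factors, no filter, a replicate block, fits of fewer groups and leaving out each library were alternatives. In the main fit each p-value sets a difference of group means against a spread between libraries estimated over all 6 groups. An exact test of 3 against 3 cannot go below 0.1. Log2 CPM for correlations used a prior count of 2. Named genes were the 5 members, the 3 most correlated genes each, and up to 8 pathway genes per contrast with the largest called change. One item of the pathway list is not reported here. Members and lists were chosen with earlier results of these data known. Promoters came from RefSeq (GRCm38.p6).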

Additional observations from a re-analysis of the deposited data

How the results depend on the processing

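Of 532 recomputed values of the 4 genes tested, 479 kept their direction and their side of the threshold, 28 lost and 5 gained a call, and 20 changed sign. The rises of Plat, Plaur and Serpine2 at 1 day on both diets and at 3 days on the normal diet, of Plat and Serpine2 at 3 days on vitamin A, and of Serpine2 between days on the normal diet passed under all 11 alternatives each. The comparison between diets 1 day after CP was known when the genes were picked, so its count is given only to show how it moves with the setting and supports nothing: 2 of the 4 lay past the threshold, 0 without a filter on low counts, 0 with only the 2 groups fitted and 0 to 2 with a library left out. Between days on vitamin A it was 1 without the filter and 0 with only these groups, in place of 2, and 1 to 2 with a library left out. Between days on the normal diet it was 2 with DESeq2 in place of 1. The cause was not tested.

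Signs changed for values near 0 that passed no test. For Plau 1 day after CP on the normal diet the change was -0.017 with DESeq2 size factors, -0.001 with the replicate block, -0.018 with only these groups and -0.018 with DESeq2, and -0.053 to 0.037 with a library left out. For Serpine2 between diets in saline bladders it was 0.005 without the filter, 0.002 with the replicate block and -0.077 to 0.114 with a library left out. With a library left out, Plau between diets ran from -0.133 to 0.009 in saline bladders, -0.020 to 0.089 at 1 day and -0.041 to 0.006 at 3 days. Its interaction of diet and time ran from -0.107 to 0.003. Plat ran from -0.275 to 0.399 between diets at 3 days and from -0.100 to 0.191 between days on the normal diet.

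No steady pairing of libraries by replicate number was seen: 10 of 27 same-numbered pairs deviated together with r above 0.1 (range -0.499 to 0.537), and no contrast had all pairs above it. With 3 libraries a group this check cannot exclude a shared cage or batch. The replicate block changed no call of the 4 genes.

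Over all genes, 90 passed between diets at 1 day, against 501 with DESeq2, 2 with only these groups and 0 to 305 with a library left out (0 without normal diet replicate 1). Between diets in saline bladders 2 passed, against 15 with DESeq2, 35 with only these groups and 7 without the filter, and at 3 days 1 and 11 with DESeq2. Between days 278 passed on the normal diet, against 658 with DESeq2, 708 with only these groups and 70 to 257 with a library left out, and 819 on vitamin A, against 1726, 17 and 316 to 1335. With only the groups compared, 4463 in place of 2271 passed at 1 day on the normal diet, 3710 in place of 1940 at 3 days, and 499 in place of 1156 at 3 days on vitamin A, where DESeq2 called 1766. Leaving out a library gave at least 1239, 961 and 671 of these 3 counts, and 2474 in place of 3727 at 1 day on vitamin A. Without the filter 25 and 9 genes passed the interactions with CP and with time, and 19 the first with only its groups.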
